A study of Drosophila melanogaster with 3 samples.

Results

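The genes described here are the 54 protein-coding genes of *Drosophila melanogaster* whose annotated symbol begins with RpL, out of 13945 protein-coding genes on the chromosome arms and chromosome 4. They were chosen by symbol and not by a measured value, although earlier results of these data were known when the choice was made. Nearly all encode proteins of the large subunit of the cytosolic ribosome, but 4 symbols end in -like, and RpL7-like, RpL24-like and RpLP0-like are relatives of yeast factors that assemble the subunit and do not stay in it. The measurement was chromatin immunoprecipitation followed by sequencing (ChIP-seq) of Plzf-eGFP, a zinc finger protein encoded by CG6792 and fused at its C terminus to green fluorescent protein (GFP). The chromatin came from whole prepupae, the stage at the onset of metamorphosis, of a transgenic line that stably expresses the fusion, with males and females pooled and with no age given. The series holds 1 group of 3 biological replicates and no second condition, and no animals without the tag were analysed here. The labels describe an immunoprecipitation with anti-GFP but enter CG6792 as the antibody, and they do not say which promoter drives the fusion. Because whole animals were used, a region bound in more cells and a region bound more heavily in each cell cannot be told apart.

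The large subunit joins amino acids at its peptidyl transferase centre, threads the new protein through an exit tunnel, and binds elongation factors at a mobile stalk of acidic proteins. The genes of its proteins are transcribed at a high rate in growing cells, and their products are needed in matched amounts. In flies most of these genes begin transcription at a TCT initiator, a pyrimidine-rich start site that takes the place of the usual initiator, and DREF, BEAF-32 and M1BP are factors known to bind close to housekeeping start sites.

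Regions bound by Plzf-eGFP stood at most RpL genes. An optimal peak, meaning a region that the authors kept after testing the agreement of replicates, had its summit within 500 bp of a transcription start site (TSS) of 38 of the 54 RpL genes (70.4%), against 2761 of 13945 protein-coding genes (19.8%). Any region of the pooled list, from which the optimal peaks were taken, was present at 46 RpL genes (85.2%), against 42.8% of all protein-coding genes. No list held a region at 4 RpL genes (7.41%), namely RpL10Aa, RpL22-like, RpL24-like and RpL40, against 5508 of all protein-coding genes (39.5%). No set test was made, and the counts are given beside those of all protein-coding genes as a description.

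The replicates gave nearly the same share. Each replicate has its own list of 30000 regions, and its 7096 regions of highest signal, as many as there are optimal peaks, are called its strongest regions. They included 38 RpL genes (70.4%) in replicate 1, 39 (72.2%) in replicate 2 and 37 (68.5%) in replicate 3. The same regions included 20.6%, 19.4% and 21.7% of all protein-coding genes in replicates 1, 2 and 3. The mean was 70.4% ± 1.85 for RpL genes and 20.6% ± 1.15 for all protein-coding genes (SD, n = 3 replicates), so the difference was many times the spread between replicates. All 3 replicates held 35 RpL genes among their strongest regions (64.8%), against 2046 protein-coding genes (14.7%). All 35 also had an optimal peak, and of the 2046 only 25 had none (1.22%). With the 3548 strongest regions of each replicate the shares were 31.5% of RpL genes and 8.81% of protein-coding genes.

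More RpL genes than protein-coding genes have several annotated TSSs, with 25 of 54 (46.3%) against 3699 of 13945 (26.5%), and peaks were more frequent at such genes in both sets. Of the 29 RpL genes with a single TSS, 18 had an optimal peak (62.1%), against 1465 of 10246 protein-coding genes with a single TSS (14.3%). With 2 or more TSSs the counts were 20 of 25 RpL genes (80.0%) and 1296 of 3699 protein-coding genes (35.0%). The part of TSS number in the RpL share was not tested.

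**Figure D1:**
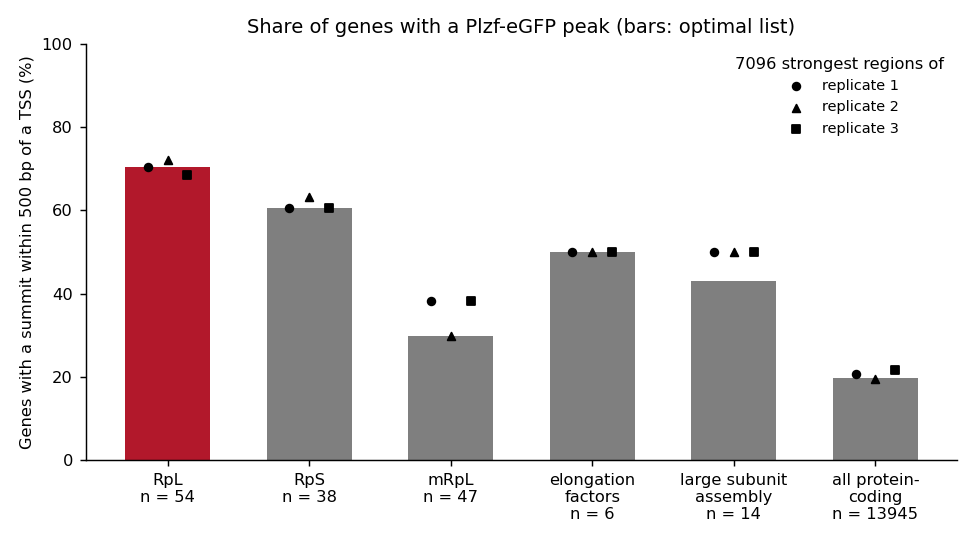
Share of genes (%) with a summit within 500 bp of a TSS. Bars give optimal peaks and points give the 7096 strongest regions of replicates 1, 2 and 3; the RpL bar stands at 70.4% and that of all protein-coding genes at 19.8%, with the 3 replicate points close to each.

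RpL genes often had a peak, but few of their peaks were among the strongest. Signal is the height of a region as deposited by the authors, and it has a scale of its own in each list, so a percentile within the list, with 100 for the strongest, is used to set lists side by side. Over the 46 RpL genes with a pooled region the median percentile was 90.1, against 73.6 for all protein-coding genes with one. With the other 8 RpL genes placed at 0 it was 89.0. In the top 10% of the pooled list lay 23 RpL genes, and the count for all protein-coding genes is not given here. The replicate lists gave medians of 90.5, 90.2 and 88.9, with a mean of 89.9 ± 0.839 (SD, n = 3). The pooled signal of the 38 RpL genes with an optimal peak ran from 80.6 to 492 with a median of 190, against a median of 169 and a maximum of 2760 for all protein-coding genes with such a peak. The signal of 23 of the 38 exceeded the protein-coding median, and only RpL34b, RpL32 and RpL7 exceeded 301, the start of the top quartile. A peak stronger than that of any RpL gene was found at 344 of the 2761 protein-coding genes.

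The 3 strongest members stood apart from the rest. RpL34b had a pooled region at chr3R:9401174-9401587 (dm6) of signal 492, which ranked 553 of 30000. It ranked 603, 543 and 521 in replicates 1, 2 and 3, so each replicate placed it alike. Its summit lay 173 bp upstream of the RpL34b TSS and 96 bp from the TSS of CG8132, which is transcribed the other way, so the nearer start site is not that of RpL34b. RpL32, a gene long used as a reference for fly transcript measurements, had signal 480 at chr3R:30046091-30046518, with the summit 153 bp upstream. Its ranks were 437, 866 and 445, with replicate 2 the lowest of the 3. RpL7 had signal 459 at chr2L:10200897-10201169, with the summit 40 bp downstream of its TSS and ranks of 744, 581 and 719. Ripalpha, named for interacting with replication protein A, starts 30 bp away on the other strand. No other RpL gene reached the top quartile.

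Members further down the list lay close together. RpL28 had signal 275 and ranked 1843, 1507 and 1393 in replicates 1, 2 and 3. RpL14 had signal 274 and ranked 1519, 1682 and 1326. Upstream, RpL28 faces eIF1, an initiation factor that helps to select start codons, and RpL14 faces Nelf-E, a subunit of the factor that holds paused polymerase near the TSS. RpL24, whose product sits at the interface with the small subunit, had signal 262 and ranked 1286, 2008 and 1423, with no coding gene facing it within 500 bp. RpLP0, the base of the stalk, had signal 258 at chr3L:22075963-22076176 and ranked 1765, 1493 and 2064. The replicate ranks of these 4 genes overlapped, so their order in the pooled list is not larger than the spread between replicates.

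**Figure D2:**
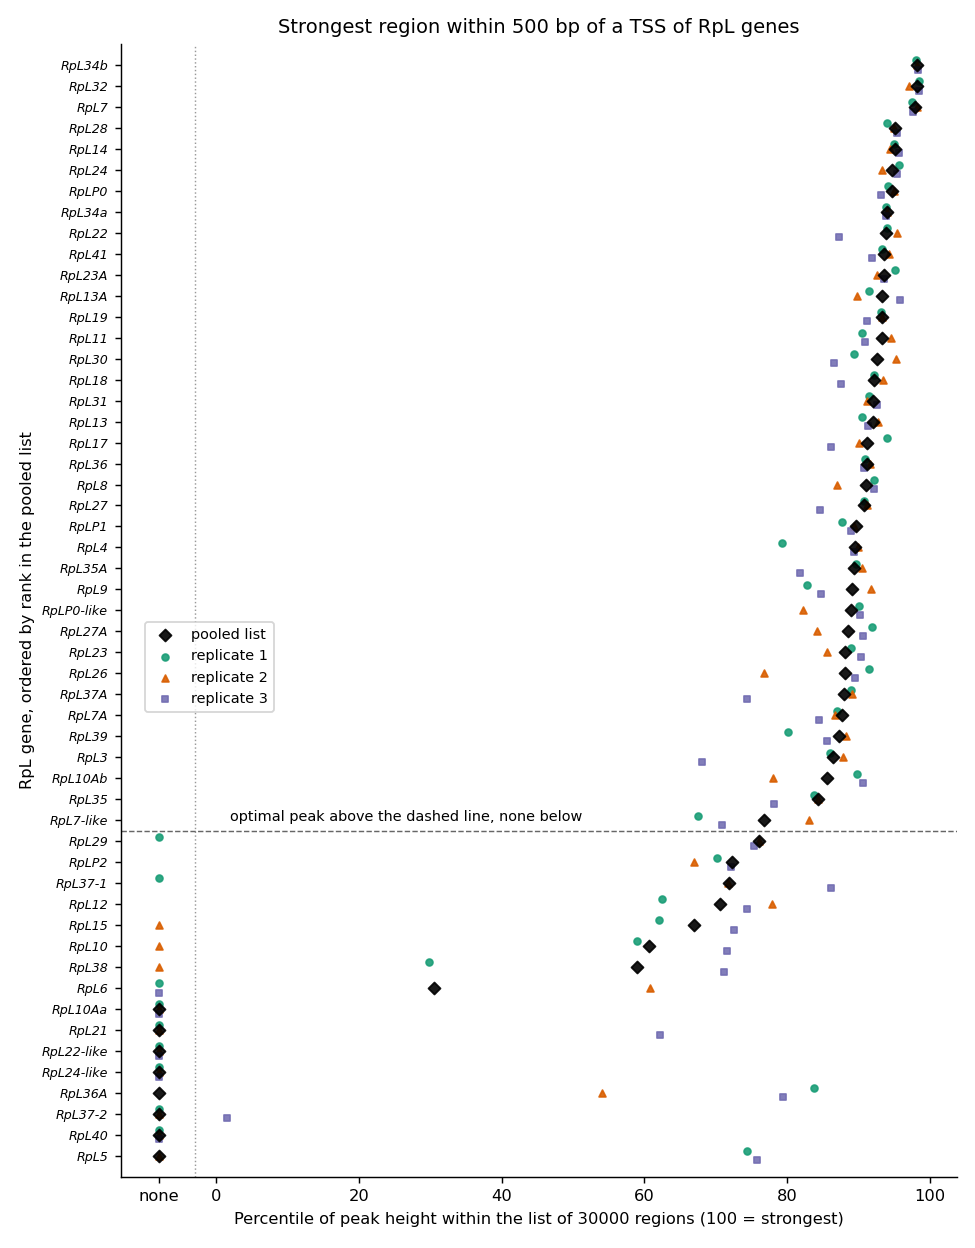
Percentile of the strongest region within 500 bp of a TSS of 53 of the 54 RpL genes (x axis, 100 = strongest of 30000) in the pooled list (diamonds) and in replicates 1 to 3. Genes run down the page by pooled rank from RpL34b; the genes above the dashed line had an optimal peak, and points at "none" mark genes with no region in that list.

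By role, the genes of the exit tunnel all had a peak, against 70.4% of all RpL genes and 19.8% of protein-coding genes. The 8 genes listed for the tunnel wall and its rim are RpL4, RpL17, RpL19, RpL23A, RpL26, RpL31, RpL35 and RpL39, with signals from 114 at RpL35 to 231 at RpL23A and a median of 171. All 8 were also among the strongest regions of each replicate. Of 3 genes for proteins that reach towards the peptidyl transferase centre, RpL8 had a peak of signal 180 and RpL3 had a peak of signal 129, while RpL10, which joins the subunit late in its assembly, had only a pooled region of signal 47.9. The lists are small, and no difference between roles was tested.

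The stalk was split. RpLP1, 1 of its acidic proteins, had signal 161 with the summit 2 bp upstream of the TSS, and ranked 3702, 3211 and 3321. Its partner RpLP2 had a pooled region of signal 68.2, below the lowest optimal signal of 79.6, and ranked 8938, 9927 and 8377. RpL12, at the stalk base beside RpLP0, had a pooled region of signal 64.8 and ranked 11292, 6619 and 7695, so replicate 2 alone placed it among its strongest regions. The closest optimal peak to RpL12, 1979 bp from its TSS, is the peak of RpL39. The partners of the 5S particle, which form a complex with 5S ribosomal RNA before joining the subunit, were split as well. RpL11 had a peak of signal 221, 43 bp upstream of its TSS, and ranked 2855, 1638 and 2728. RpL5 had no pooled region, but replicate 1 held a region of signal 22.6 and rank 7684 and replicate 3 a region of signal 22.2 and rank 7287, with none in replicate 2. RpL40, which is made as a fusion to ubiquitin, had no region within 500 bp in any list, and the closest pooled region lay 650 bp away.

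Pairs of related genes differed in every pair that held a -like name. RpL22 had a peak of signal 235 and ranked 1786, 1369 and 3803, whereas RpL22-like, its paralogue of the male germline, had none, and the closest optimal peak lay 1147 bp from it. RpL24-like had no region either, although CG5276 starts 156 bp away on the other strand, and its closest optimal peak lay 9657 bp away. RpL7-like had signal 80.6 and pooled rank 7001, close to the end of the optimal list, against 459 at RpL7. It ranked 9749, 5112 and 8719, so only replicate 2 held it among its strongest regions. RpLP0-like had a peak of signal 153 that ranked 2980, 5345 and 2932, but its summit lay 16 bp from the TSS of 14-3-3zeta, an adaptor for phosphorylated proteins, and 71 bp from its own.

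The other pairs differed as well. RpL34a had signal 241 and ranked 1859, 1842 and 1871, against signal 492 at RpL34b. RpL10Ab had signal 122 and ranked 3099, 6611 and 2832, with the summit 311 bp upstream of its TSS and 265 bp from the shared start of CG11597 and CG5946. A second optimal peak of signal 108 lay 82 bp upstream of the RpL10Ab TSS, and RpL10Aa had no region in any list. RpL37-1 had a pooled region of signal 67.3, ranked 8481 in replicate 2 and 4177 in replicate 3 and was not in the list of replicate 1. RpL37-2 was in the list of replicate 3 alone, with signal 6.54 and rank 29553.

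Of the 16 RpL genes without an optimal peak, 8 had a pooled region. RpL29 missed the optimal list most narrowly, with signal 78.5 and pooled rank 7197 against signal 80.6 and rank 7001 at RpL7-like just inside it. RpL29 ranked 7203 in replicate 2 and 7405 in replicate 3 and was not in the list of replicate 1. RpL6 had the weakest pooled region, of signal 25.3 and rank 20851, and was in the list of replicate 2 alone. RpL36A was in the list of every replicate, with signals of 34.2, 20.0 and 25.9 and ranks of 4885, 13787 and 6172, but the closest pooled region lay 7947 bp away. Of the 41 RpL genes in all 3 replicate lists it was the only one without a pooled region (2.44%), against 117 of 4359 protein-coding genes (2.68%).

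A group of 5 members without an optimal peak shared a position on the chromosomes. RpL5 and RpL21 on 2L, RpL38 on 2R, and RpL10 and RpL15 on 3L lie in the stretch of each arm next to the centromere in which no optimal peak was found, a set of stretches that was delimited after the values were seen. Together these stretches span 17.0 Mb with 151 protein-coding genes, of which 34 (22.5%) had a pooled region. RpL10, RpL15 and RpL38 had pooled signals of 47.9, 57.6 and 45.8, and RpL5 and RpL21 had no pooled region. None of the 5 was in the list of replicate 2, which held 50 regions in these stretches, against 245 in replicate 1 and 244 in replicate 3. Outside the stretches 38 of 49 RpL genes had an optimal peak (77.6%), against 20.0% of protein-coding genes. Since the stretches were delimited by the lack of optimal peaks, leaving them out could only raise these shares. The part of position in the missing peaks was not tested.

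All but 3 of the 38 RpL genes with an optimal peak were among the strongest regions of all 3 replicates. Of all protein-coding genes, 2761 had an optimal peak. The strongest regions of all 3 replicates included 2046, of which 25 had no optimal peak. RpL37A ranked 3319, 3265 and 7694 and RpL3 ranked 4207, 3650 and 9614, so replicate 3 placed both below its strongest regions, and RpL7-like is described above. Across RpL genes, Spearman's rho of the signal was 0.72 for replicates 1 and 2 (41 genes), 0.86 for replicates 1 and 3 (45 genes) and 0.66 for replicates 2 and 3 (43 genes), against 0.81, 0.88 and 0.80 for all protein-coding genes. These values describe genes measured in the same 3 libraries and carry no test.

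The peaks of RpL genes lay close to the TSS. The median summit was 41.5 bp upstream (offset −41.5 bp) over the 38 RpL genes, against an offset of −147 bp over all protein-coding genes with an optimal peak. The interquartile range was −67.0 to −4.75 bp for RpL genes and −243 to −68.0 bp for protein-coding genes. In the strongest regions of replicates 1, 2 and 3 the RpL medians were −49.5, −22.0 and −46.0 bp, a mean of −39.2 ± 15.0 bp (SD, n = 3), and the protein-coding medians were −149, −138 and −143 bp. The summit fell within 100 bp of the TSS at 33 of 38 RpL genes (86.8%), against 753 of 2761 protein-coding genes (27.3%). Upstream by more than 100 bp were 5 RpL genes (13.2%), against 65.7% of protein-coding genes. They were RpL23 at −485 bp, RpL10Ab at −311 bp, RpL34b at −173 bp, RpL32 at −153 bp and RpL23A at −117 bp.

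For 34 of the 38 RpL genes no other coding TSS was nearer to the summit. The same held for 2069 of the 2761 protein-coding genes with an optimal peak. The exceptions among RpL genes were RpL34b, RpL10Ab and RpLP0-like, given above, and RpL23, whose summit lay 71 bp from CG13531. RpL23 had a region at its own TSS too, 20 bp downstream, but with signal 56.4 and pooled rank 10130 it was not among the optimal peaks. Over the 34 RpL genes that owned the nearest TSS the median offset was −35.5 bp, against −120 bp over the 2069 protein-coding genes. The bin from −50 to −1 bp held 17 RpL genes (44.7%), against 6.61% of the other protein-coding genes, which were most frequent from −150 to −101 bp (17.0%).

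**Figure D3:**
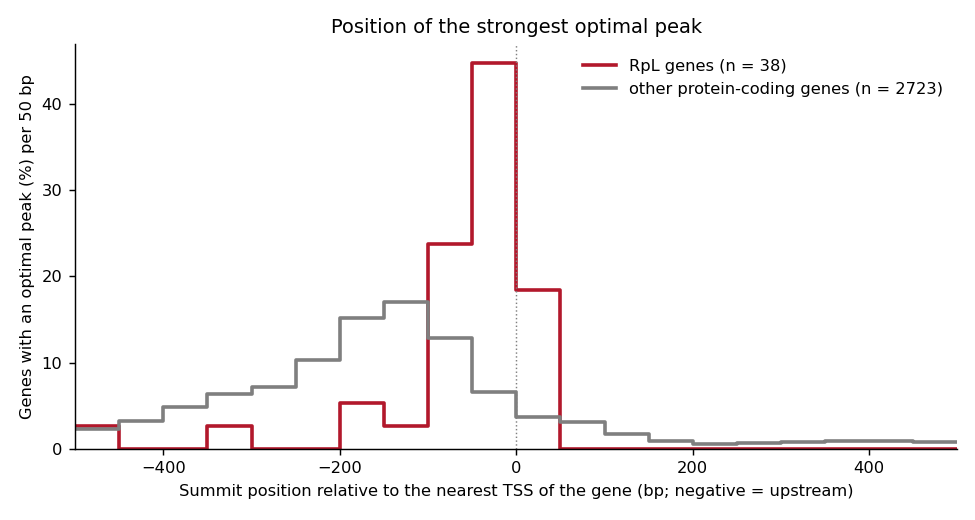
Position of the strongest optimal peak relative to the nearest TSS of its gene (x axis, bp, negative upstream) as the share of genes per 50 bp (y axis, %). The RpL line peaks at 44.7% just upstream of the TSS, while the line of the other protein-coding genes peaks at 17.0% between −150 and −101 bp.

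Summits of single replicates lay near the pooled summit at RpL genes. Among RpL genes with a strongest region in the replicate the median shift was 19.0, 15.0 and 12.0 bp in replicates 1, 2 and 3, against 18.5, 15.0 and 19.0 bp for protein-coding genes. These shifts are smaller than the distance between the RpL and protein-coding medians of the offset. Of the 38 RpL peaks, 23 had the width of 440 bp shared by 4620 of the 7096 optimal peaks, and the narrowest, at RpL11 and RpL18, spanned 114 bp. A second optimal peak stood within 500 bp of a TSS of 8 RpL genes, such as RpL28 with signals of 275 and 128 at offsets of −64 and −271 bp.

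Peaks were more frequent at RpL genes that faced another coding gene, and the difference was not tested. A coding TSS on the opposite strand lay upstream within 500 bp of 22 RpL genes (40.7%), against 27.4% of protein-coding genes. An optimal peak was found at 20 of these 22 RpL genes (90.9%) and at 18 of the 32 others (56.2%), while the protein-coding genes gave 36.0% with such a partner and 13.7% without. The median signal was 223 at RpL genes with a partner and 156 at those without, against 181 and 153 for protein-coding genes. RpL29, facing Sgf29, and RpL24-like were the members with a partner and no peak. RpL13 faces Dref, the gene of the factor that binds the DRE described below, with the starts 84 bp apart. The peak of such a pair belongs to both genes under the window used, and to which of them it relates was not tested.

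In the share of genes with an optimal peak, other genes of the translation machinery held an intermediate place. Of 38 RpS genes, which encode the small subunit, 23 had an optimal peak (60.5%), with a median offset of −27.0 bp. In the replicates' strongest regions the RpS share was 61.4% ± 1.52 (SD, n = 3), and in each replicate it was below that of RpL genes. Of 47 mRpL genes, which encode the large subunit of the mitochondrial ribosome, 14 had a peak (29.8%), with a median offset of −140 bp. Of 6 elongation factor genes 3 had a peak, eEF1alpha1, eEF1gamma and eEF2, and of 14 genes for assembly of the large subunit 6 had a peak, among them RpL7-like and RpLP0-like.

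Base composition at the RpL summits differed from that of other promoters with a peak. Within 50 bp of the summit, GC content averaged 44.9% ± 8.60 over the 38 RpL peaks, with flanks 300 bp away at 41.4% ± 6.23 (SD over peaks), a difference of 3.58 percentage points. Over the 2034 optimal peaks at protein-coding promoters the summit averaged 34.0% and the flanks 44.4%, a difference of −10.4. The replicates gave RpL differences of 2.37, 3.39 and 2.33, a mean of 2.70 ± 0.601 (SD, n = 3), and protein-coding differences of −11.1, −8.70 and −10.4. The RpL value depended on the width of the window, since with 100 bp on each side of the summit the RpL difference was 0.373, against −9.30 for protein-coding promoters.

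The position of the summit went with this difference in part. The 33 RpL summits within 100 bp of the TSS averaged 46.4% GC, with a difference of 5.66 from their flanks, and the 526 other protein-coding summits within 100 bp averaged 37.8%, with a difference of −6.38. The 5 RpL summits farther upstream averaged 35.0% and a difference of −10.1. Single members ranged from 24.8% at RpL34b to 60.4% at RpL22, and 11 of 38 had less GC at the summit than in the flanks. RpL34b, RpL34a and RpL10Ab had the lowest values, with 24.8%, 25.7% and 25.7%. The summits of RpS genes had 45.6% GC and a difference of 6.01, whereas those of mRpL genes had 31.3% and a difference of −16.7.

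**Figure D4:**
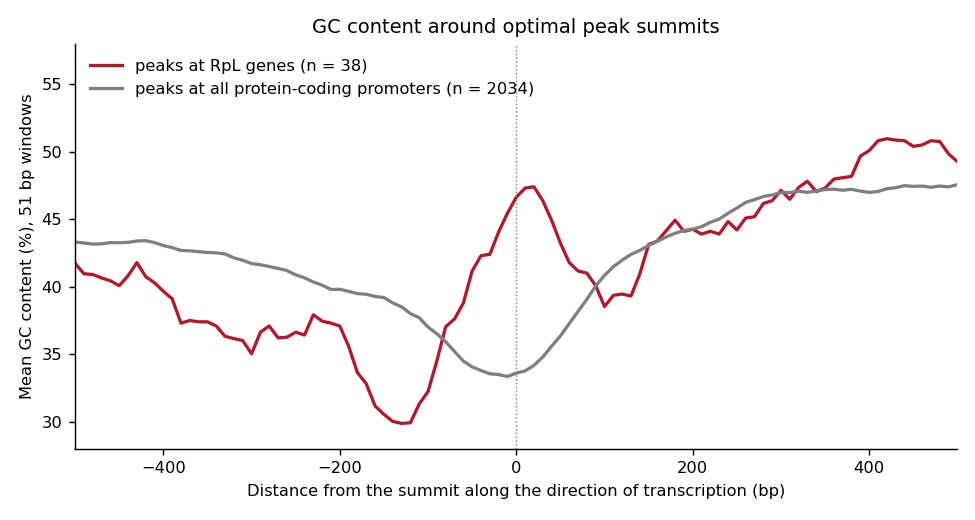
Mean GC content (%) in windows of 51 bp against distance from the optimal summit along the direction of transcription (bp). The RpL line (38 peaks) has a local maximum of 47.4% at 20 bp downstream of the summit and a minimum of 29.9% at 130 bp upstream, and the line of all protein-coding promoters (2034 peaks) dips to 33.4% at 10 bp upstream of the summit.

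The promoters of 8 members show what these summits cover. Each runs from 110 bases before to 10 bases from the TSS on, 5′ to 3′ on the strand of the gene, in dm6 coordinates with the sequence of the RefSeq genome of that assembly. Capitals mark CTTT with its C within 5 bp of the TSS, which is the core of the TCT initiator, and matches on either strand to TATCGATA, GGTCACAC and CACACTA. The RpL28, RpL14, RpL24, RpLP1 and RpL34a stretches each contain the summit of an optimal peak. The RpL37-1 stretch contains the summit of a pooled region below the optimal list, and RpL40 and RpL10Aa had no region at all. The stretches are chr3L:3222951-3223070 on the minus strand for RpL28, chr3L:8600896-8601015 on the plus strand for RpL14, chr2L:13395122-13395241 on the minus strand for RpL24, and chr2L:419842-419961 on the plus strand for RpLP1. Those of the others are chr3R:26059258-26059377 on the minus strand for RpL34a, chrX:15139358-15139477 on the minus strand for RpL37-1, chr2L:4227589-4227708 on the plus strand for RpL40, and chr3R:15037256-15037375 on the plus strand for RpL10Aa.
RpL28: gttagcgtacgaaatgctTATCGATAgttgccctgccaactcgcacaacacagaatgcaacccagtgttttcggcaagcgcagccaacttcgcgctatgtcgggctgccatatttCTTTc
RpL14: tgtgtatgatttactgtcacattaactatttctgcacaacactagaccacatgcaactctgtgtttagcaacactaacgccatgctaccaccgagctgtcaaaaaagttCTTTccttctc
RpL24: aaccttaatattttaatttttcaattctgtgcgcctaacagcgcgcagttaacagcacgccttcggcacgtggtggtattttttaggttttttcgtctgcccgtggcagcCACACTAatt
RpLP1: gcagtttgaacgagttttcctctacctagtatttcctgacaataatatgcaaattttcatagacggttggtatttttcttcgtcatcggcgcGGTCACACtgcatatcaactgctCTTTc
RpL34a: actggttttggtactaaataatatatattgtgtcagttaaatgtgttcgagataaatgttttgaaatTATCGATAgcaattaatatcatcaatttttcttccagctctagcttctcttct
RpL37-1: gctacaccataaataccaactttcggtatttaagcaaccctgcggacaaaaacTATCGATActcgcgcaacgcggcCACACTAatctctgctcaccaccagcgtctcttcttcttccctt
RpL40: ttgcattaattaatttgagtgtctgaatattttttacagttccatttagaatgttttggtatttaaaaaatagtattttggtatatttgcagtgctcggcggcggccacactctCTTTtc
RpL10Aa: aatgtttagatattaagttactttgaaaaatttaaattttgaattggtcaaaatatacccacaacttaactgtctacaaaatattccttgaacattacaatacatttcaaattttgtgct

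Start sites with the TCT core were frequent among RpL genes with and without a peak. In these promoters RpL28, RpL14, RpLP1 and RpL40 have it at the TSS shown, so the core was present at a gene with no region. Among all RpL genes 33 of 54 have the core at a TSS (61.1%), against 1125 of 13945 protein-coding genes (8.07%), and 25 of 38 RpS genes have it (65.8%). It was present at 27 of the 38 RpL genes with an optimal peak (71.1%) and at 6 of the 16 without (37.5%). Protein-coding genes other than RpL that have the core carried an optimal peak in 299 of 1092 cases (27.4%). The part of the core in the RpL peaks was not tested.

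The DRE, CGATA and the core of motif 1 were more frequent at RpL summits than at other summits. The DNA replication-related element (DRE), TATCGATA, to which DREF binds, lay within 50 bp of 7 of 38 RpL summits (18.4%) and in no RpL flank, against 2.10% of 1996 other protein-coding promoter summits and 5.20% of 19253 windows of the same length centred 50 bp upstream of the TSSs of all promoters. Among those 7 are RpL28, RpL34a, RpL19 and RpL39. The shorter CGATA, bound by BEAF-32 and contained in the DRE, was found at 17 RpL summits (44.7%), against 16.5% of the other summits and 26.0% of all promoters. The 23 RpS summits gave values close to these for both, with the DRE at 17.4% and CGATA at 43.5%. The core of promoter motif 1, GGTCACAC, to which M1BP binds, was found at 5 RpL summits (13.2%), those of RpL27A, RpL30, RpL37A, RpLP0 and RpLP1, against 0.802% and 2.63%, and at 4.35% of RpS summits. In the RpLP1 promoter it ends a short distance before the TSS.

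The other summits close to a TSS had these motifs less often than the RpL summits. Among the 526 other protein-coding summits within 100 bp of the TSS, the DRE was found at 5.51%, CGATA at 26.2% and GGTCACAC at 1.71%. The string CACACTA, which overlaps the end of the full motif 1 and was searched after the sequences had been seen, was found at 8 RpL summits (21.1%), against 0.902% of the other summits and 1.43% of all promoters. No RpL summit had both GGTCACAC and CACACTA. In the RpL24 promoter CACACTA begins at the TSS. A match describes letters only: the RpL37-1 promoter has both TATCGATA and CACACTA and no optimal peak.

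Several strings were less frequent at RpL summits than at other summits, whereas GATAA was not. GAGAG, bound by GAGA factor, was found at none of the 38 RpL summits, a count of 0, with 5 in the flanks at lower and 6 in those at higher coordinates, against 10.8% of the other summits. TATAAA, the TATA box, was found at 4 RpL summits (10.5%), against 22.3% of the other summits. TAATATA and TCTTAAA, strings chosen from earlier results of these data, were each found at 1 RpL summit (2.63%), at RpL34a and RpL7-like. The other summits had them at 8.42% and 5.26%, shares that this choice may have raised, and all promoters at 3.25% and 2.25%. TAATATA also lay in 4 RpL flanks at lower coordinates (10.5%) and in 0 at higher coordinates. The 23 RpS summits had TATAAA at 8.70% and TAATATA and TCTTAAA at 0, so low shares of these were not particular to RpL genes. GAGAG was found at 8.70% of RpS summits. GATAA, the core bound by GATA factors, was found at 12 RpL summits (31.6%), against 24.0% of the other summits, 25.9% of all promoters and 17.4% of RpS summits. It also lay in 11 RpL flanks at lower coordinates (28.9%), close to the summit share, and in 5 at higher coordinates (13.2%). All matches were counted on both strands, and none of these differences was tested.

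**Figure D5:**
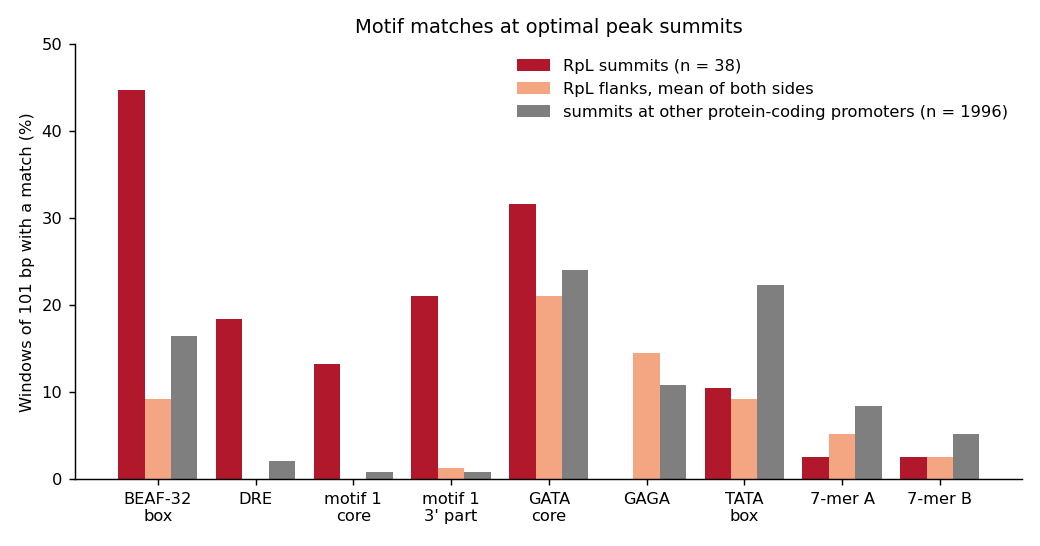
Share of windows of 101 bp (y axis, %) with a match to each motif at RpL summits (dark red, 38), in RpL flanks 300 bp away (light red, mean of both sides) and at other protein-coding promoter summits (grey, 1996). The BEAF-32 box is CGATA, and 7-mers A and B are TAATATA and TCTTAAA. The bars named the 3' part of motif 1 count the string CACACTA, which no RpL summit had together with GGTCACAC. The RpL bar of the BEAF-32 box stands at 44.7% against 16.5% in grey, and GAGAG has no RpL bar.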

How the data were processed

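Regions came from ChIP-seq of Plzf-eGFP in 3 biological replicates of whole prepupae. Per the file headers, the authors deposited, on dm6, 30000 regions per replicate and 30000 from all replicates pooled, called against a control library, and the optimal peaks that passed an irreproducible discovery rate threshold. Names and versions of aligner and caller, and the threshold itself, were not given in the sources used here. Signal, as deposited, is the authors' height of a region with a separate scale in each list, so ranks within a list were used. Reads per library are unknown from these lists. The dm3 lists were not used, and 6 mitochondrial regions of replicate 2 were left out.

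Genes and TSSs came from Ensembl release 115. Each summit, the deposited offset from the region start, was assigned to every gene with a TSS within 500 bp, and the strongest region represents a gene. GC content and motifs were read within 50 bp of the summit and 300 bp to either side. No contrast or set test was made; spread is the SD over replicates. The members, gene lists and motifs were chosen with earlier results of these data known. Genes named in detail are the 8 of highest pooled signal, those without an optimal peak, stalk and 5S particle genes, paralogue pairs and peaks held by under 3 replicates; 1 of these genes is not reported here. Alternatives changed the window, the assignment, the threshold, the members and the replicates in which a region was required. The assignment was tested on simulated regions. Python 3.11.15, pandas 2.3.3, numpy 2.4.6 and matplotlib 3.10.9 were used.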

Additional observations from a re-analysis of the deposited data

How the results depend on the processing

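No value reversed. No paired analysis was possible because only 1 group exists. The share of RpL genes with an optimal peak was 66.7% when the region had to cover the TSS (12.3% of protein-coding genes), 64.8% when the nearest TSS had to be the gene's own (15.3%) and 53.7% with peaks of above-median signal (11.6%). For each replicate left out, genes with an optimal peak also had to be among the strongest regions of the remaining replicates. This gave 64.8% to 68.5% (15.2% to 16.6%). The optimal list itself still came from all replicates, so this requirement could only lower the share. Without the stretches next to the centromere the share was 77.6% (20.0%), an alternative added after the data were seen that drops only genes without a peak and so could not lower the share. The share in the strongest regions of all replicates was 53.7% with the nearest TSS the gene's own (10.2%), 75.9% with all regions (31.3%), 31.5% with the 3548 strongest regions per replicate (8.81%) and 68.0% without -like names (no protein-coding value). With 1 replicate left out it was 64.8% to 68.5% (15.6% to 17.8%), and asking for fewer replicates could not lower it. The GC difference was 4.63 with a window of 250 bp, 4.64 with peaks of above-median signal and 0.373 with 100 bp on each side of the summit, with protein-coding values of −11.2, −14.2 and −9.30. The cause of these shifts was not tested. The shares of RpL genes were above those of all protein-coding genes in 8 of 8 other alternatives with such a value for each share. The median percentile moved by less than the replicate SD in 4 of 4 alternatives and the median offset in 8 of 8. With 1 replicate left out in the same way the offset was −43.0 to −40.0 bp. Those values kept the summits of the optimal list of all replicates, at nearly the same genes, so they could move little. The summits of each replicate by itself gave −49.5, −22.0 and −46.0 bp.

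The lists give no read depth, so the precision of a single signal is unknown, and regions below the lowest pooled signal of 16.5 or beyond the first 30000 of a replicate cannot be seen. A gene without a region is therefore not shown to be unbound. Only 3 replicates of 1 line and stage were measured, and no untagged animals were analysed here.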

Other observations

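The RpL genes with an optimal peak were spread over the arms, with 5 of 6 on X, 9 of 13 on 2L, 8 of 14 on 2R, 8 of 10 on 3L and 8 of 11 on 3R, against 19.4%, 20.0%, 18.3%, 20.8% and 20.7% of the protein-coding genes of the same arms. RpL7-like, the weakest optimal peak of the set, starts 7.41 kb beyond the end of Plzf, the gene of the tagged protein, on 2L. AAAAGAA and GCCACAC, searched after the sequences had been seen, were found within 50 bp of 10 RpL summits (26.3%) and 8 RpL summits (21.1%), against 6.96% and 0.852% of other protein-coding promoter summits. At the summits of the 23 RpS genes with an optimal peak the same strings were found in 30.4% and 8.70%, and CACACTA was found in none of them (0 of 23). GCCACAC shares the letters CACAC with CACACTA, and RpL8, RpL11, RpL18, RpL24 and RpL35A had both strings at the summit. AAAAGAA reads TTCTTTT on the other strand, which contains the CTTT of the TCT core. At RpL3, RpL9 and RpL27 the match includes the core at the TSS, so AAAAGAA is not a string separate from the initiator.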
